A study of Mus musculus with 51 samples.

Results

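Cartilage extracellular matrix genes and their regulator Sox9 were followed through every processed file of a mouse bone study of vitamin C (VitC) and of the DNA demethylases Tet1 and Tet2. The 10 genes, Col2a1, Col9a1, Col9a2, Col9a3, Col10a1, Acan, Matn1, Matn3, Comp and Sox9, were chosen by name. All 10 were listed, among 23358 gene entries in the femur files of the VitC experiment and 25938 in the femur table of the Tet experiment. Peaks were taken from 10 peak lists when they lay in the gene or within 30 kb of it.

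Cartilage owes its tensile strength to thin fibrils of type II collagen, whose chain is encoded by Col2a1, with type IX collagen (Col9a1, Col9a2, Col9a3) on the fibril surface, and its compressive stiffness to the proteoglycan aggrecan (Acan). Matrilins (Matn1, Matn3) and cartilage oligomeric matrix protein (Comp) are adaptors between these networks, and Col10a1 encodes the type X collagen of hypertrophic chondrocytes next to the ossification front. Sox9 is the transcription factor that defines the chondrocyte lineage. In a long bone these genes are known chiefly from growth plate and articular cartilage, and a whole femur library may hold more or less of those tissues. VitC is a cofactor of the collagen prolyl hydroxylases, of Tet enzymes, which convert 5-methylcytosine to 5-hydroxymethylcytosine (5hmC), and of histone demethylases acting on marks such as H3K9me3 and H3K27me3.

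In the VitC experiment, Gulo-/- mice (Gulotm1Mae, C57BL/6), which cannot make VitC, drank water with VitC at 3.3 g/L for 20 weeks (VitC+) or for 15 weeks and then water without VitC until they were killed at 20 weeks of age (VitC+/-), beside WT mice of the same age. In the Tet experiment, mice were 11 weeks old and all carried Prrx1-Cre, which is active in limb mesenchyme and not in blood cells, with wild-type alleles (Ctrl), floxed Tet1 (Tet1 cKO), floxed Tet2 (Tet2 cKO) or both (Tet1/2 cKO). Femur RNA-seq comprised 3 libraries in each of these groups. 5hmC was mapped by hMeDIP-seq in femurs of VitC+, VitC+/-, Ctrl and Tet1/2 cKO mice (3 libraries each, pooled by the authors into 1 peak list per group) and in MC3T3-E1 cells, a calvarial pre-osteoblast line, kept for 28 days with β-glycerophosphate at 4 mM and with VitC at 50 µg/ml (VitC+) or without it (VitC-). H3K27me3 and H3K9me3 lists came from the same line, with 2 libraries per list, as for 5hmC in these cells. Femurs were flushed of marrow and stripped of periosteum. The labels do not say which libraries of a group shared a litter, cage or preparation day, so p-values measure the spread between these femurs.

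Libraries of the VitC experiment corresponded to 7.61e+06 reads for WT replicate 1 and to between 3.12e+07 and 4.76e+07 reads for the other 8, and those of the Tet experiment to between 2.86e+07 and 4.98e+07 reads. Gulo was listed at 0.522, 0.486 and 0 RPKM (reads scaled to transcript length and library size) in the libraries labelled WT and at 0.013 to 0.180 RPKM in the Gulo-/- libraries. The library labelled WT replicate 3 thus lay below every Gulo-/- library. These values rested on about 9, 39 and 0 reads in WT and about 1 to 14 reads in Gulo-/- libraries, too few to check the label of a single library. Whole-gene normalized counts of Tet1 were 374, 420 and 435 in Ctrl, 630, 532 and 773 in Tet1 cKO and 485, 415 and 442 in Tet1/2 cKO, so that every library labelled Tet1 cKO lay above every Ctrl library. Those of Tet2 were 2236 to 2512 in Ctrl, 1834 to 2245 in Tet2 cKO and 1851 to 2970 in Tet1/2 cKO. The counts therefore do not check the cKO labels, and a whole-gene count cannot show the loss of 1 exon in part of the cells. In bulk libraries, fewer cells of a type and less RNA per cell cannot be told apart.

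The DNA sites shown are 5hmC peaks inside these genes in VitC+ or Ctrl femurs, with no overlapping peak in the VitC+/- or cKO list. The strongest such peak is shown for 4 genes as the 200 bases around its summit (mm10, plus strand). Peaks found only in the VitC+/- or cKO lists are not among them, so the windows cannot show gains of 5hmC peaks. Capitals mark CpG dinucleotides, where 5hmC is made. The windows of Col2a1 (chr15:97995739-97995938), Col9a1 (chr1:24237572-24237771) and Col10a1 (chr10:34393621-34393820) were peaks of VitC+ femurs, and that of Comp (chr8:70379082-70379281) was a peak of Ctrl femurs.
Col2a1: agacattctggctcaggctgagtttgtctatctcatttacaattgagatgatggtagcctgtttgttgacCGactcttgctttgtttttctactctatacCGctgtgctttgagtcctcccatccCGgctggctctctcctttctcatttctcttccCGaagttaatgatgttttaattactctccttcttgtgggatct
Col9a1: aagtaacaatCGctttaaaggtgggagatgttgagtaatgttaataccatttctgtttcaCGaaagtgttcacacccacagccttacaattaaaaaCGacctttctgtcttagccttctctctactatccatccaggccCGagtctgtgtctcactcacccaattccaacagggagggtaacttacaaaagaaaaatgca
Col10a1: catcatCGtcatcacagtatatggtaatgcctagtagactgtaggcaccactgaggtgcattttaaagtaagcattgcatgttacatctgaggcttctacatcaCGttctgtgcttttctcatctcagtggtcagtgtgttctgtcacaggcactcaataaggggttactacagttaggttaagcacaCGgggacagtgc
Comp: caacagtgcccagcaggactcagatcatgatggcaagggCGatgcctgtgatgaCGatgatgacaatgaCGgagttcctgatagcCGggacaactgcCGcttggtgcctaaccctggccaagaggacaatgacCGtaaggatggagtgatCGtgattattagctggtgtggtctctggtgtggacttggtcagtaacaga
The Col2a1 window, with 4 CpGs, lay 8886 bp inside the gene from its start, overlapped no Col2a1 exon and overlapped an exon of the annotated locus Gm46536. The Col9a1 and Col10a1 windows, with 4 and 3 CpGs, overlapped no exon. The Comp window, with 7 CpGs, overlapped a coding exon of Comp, which encodes a pentameric adaptor that binds type II and type IX collagen.

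Col2a1 (chr15:97975602-98004724, minus strand) was the member with the clearest difference in the VitC experiment. It was listed at 75.1, 37.1 and 42.4 RPKM in WT, at 80.1, 135 and 301 RPKM in VitC+ and at 17.1, 14.2 and 9.21 RPKM in VitC+/- femurs. The 3 VitC+/- libraries lay below all 6 others, and the 3 WT libraries lay below all VitC+ libraries. Group means were 51.5 ± 20.6, 172 ± 115 and 13.5 ± 3.98 RPKM (SD, n = 3). On the log2 scale, after scaling and a pseudocount of 0.5 RPKM, Col2a1 fell by 3.57 (SE 0.41) in VitC+/- against VitC+ (limma adjusted p = 0.00173) and by 1.91 (SE 0.41) against WT (limma adjusted p = 0.00810). Without VitC+ replicate 3 the fall against VitC+ was 3.17 on that scale (limma adjusted p = 0.00484). The difference from WT also passed without WT replicate 1 or WT replicate 3 alone. With both left out, only 1 WT library remained, assumed to vary like the other groups, and the difference was -1.40 (limma adjusted p = 0.103).

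The type IX collagen genes were far lower than Col2a1 per unit of transcript length. Col9a1 (chr1:24177610-24252738) was listed at 0.574, 0.044 and 0.702 RPKM in WT, 1.68, 0.827 and 12.2 in VitC+ and 0.140, 0.058 and 0.146 in VitC+/-. Col9a2 (chr4:121039566-121055325) was listed at 1.48, 0.093 and 0.856 RPKM in WT, 2.32, 1.15 and 20.9 in VitC+ and 0.302, 0.175 and 0.115 in VitC+/-. Col9a3 (chr2:180598222-180622185) was listed at 0.877, 0.298 and 1.37 RPKM in WT, 3.06, 1.03 and 21.9 in VitC+ and 0.603, 0.461 and 0.273 in VitC+/-. For each of the 3 genes all VitC+/- femurs lay below all VitC+ femurs, VitC+ replicate 3 stood well above the other libraries of its group, and WT replicate 2 was the lowest WT library. Col9a2, with about 29, 15 and 15 reads in the VitC+/- libraries, fell by 2.81 on the log2 scale (SE 0.80, limma adjusted p = 0.0473). That call was lost without VitC+ replicate 3 (-1.79, limma adjusted p = 0.0940) and without 5 other libraries in turn (WT 3, VitC+ 1 and each VitC+/- library). Col9a3 differed by -2.49 (SE 0.78, limma adjusted p = 0.0637) and Col9a1 did not pass the filter on low values, its VitC+/- libraries resting on about 7 to 27 reads each.

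Col10a1 (chr10:34389981-34397085), the marker of hypertrophic chondrocytes, ran over a wide range in WT and VitC+ and a narrow one in VitC+/-. It was listed at 0.294, 0.108 and 3.37 RPKM in WT, 0.494, 2.21 and 47.4 in VitC+ and 0.247, 0.286 and 0.309 in VitC+/-. The VitC+/- femurs lay close together and below every VitC+ femur, while WT replicate 3 and VitC+ replicate 3 stood high in their groups. The log2 difference of -2.73 (SE 1.18) between VitC+/- and VitC+ did not pass (limma adjusted p = 0.151).

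Acan (chr7:79053483-79115099) did not separate the groups. Its levels were 1.02, 0.023 and 0.958 RPKM in WT, 1.42, 0.788 and 15.0 in VitC+ and 1.28, 0.205 and 3.56 in VitC+/-. The VitC+/- range overlapped that of VitC+, and the log2 difference was -1.05 (SE 0.91, limma adjusted p = 0.466).

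Among the adaptor proteins, Comp (chr8:70373548-70382066) was the second most abundant member per unit of length in 7 of 9 libraries and exceeded Col2a1 in the other two, VitC+/- replicates 2 and 3. It was listed at 16.5, 2.73 and 12.7 RPKM in WT, 15.5, 19.1 and 90.8 in VitC+ and 12.9, 34.4 and 16.3 in VitC+/-. The groups overlapped (log2 difference VitC+/- against VitC+ -0.74, SE 0.74, limma adjusted p = 0.534). Comp is also made in tendon, whose 8 marker genes summed to 18.2 to 46.2 scaled RPKM in VitC+ and to 17.1 to 202 in VitC+/- femurs, and the part of tendon in these values was not tested.

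Matn3 (chr12:8947929-8972028) was listed at 0.131, 0.009 and 0.176 RPKM in WT, 0.329, 0.458 and 3.69 in VitC+ and 0.218, 0.127 and 0.614 in VitC+/-. Matn1 (chr4:130944385-130955476) was listed at 0.394, 0.042 and 0.088 RPKM in WT, 1.78, 0.080 and 0.621 in VitC+ and 0.271, 0.032 and 0.042 in VitC+/-. Neither passed the filter. Matn1 rested on about 2 to 122 reads per library, and the 2 matrilins did not peak in the same VitC+ library.

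Sox9 (chr11:112782210-112787757) was highest in another library than the collagens. It was listed at 0.158, 0.095 and 0.372 RPKM in WT, 0.499, 0.436 and 2.18 in VitC+ and 1.42, 0.348 and 7.13 in VitC+/-. The highest library was VitC+/- replicate 3, the one with the lowest Col2a1. The log2 difference was 0.71 (SE 0.69, 95% interval -0.85 to 2.27, limma adjusted p = 0.528) against VitC+ and 1.69 (SE 0.69, limma adjusted p = 0.0917) against WT. On the log2 scale, Pearson's r between Sox9 and Col2a1 was -0.28 over these 9 libraries and 0.63 over the 12 of the Tet experiment, and between Col2a1 and Col9a2 it was 0.86 and 0.23. The points of each experiment share its groups, and these are descriptions with no test.

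**Figure D1:**
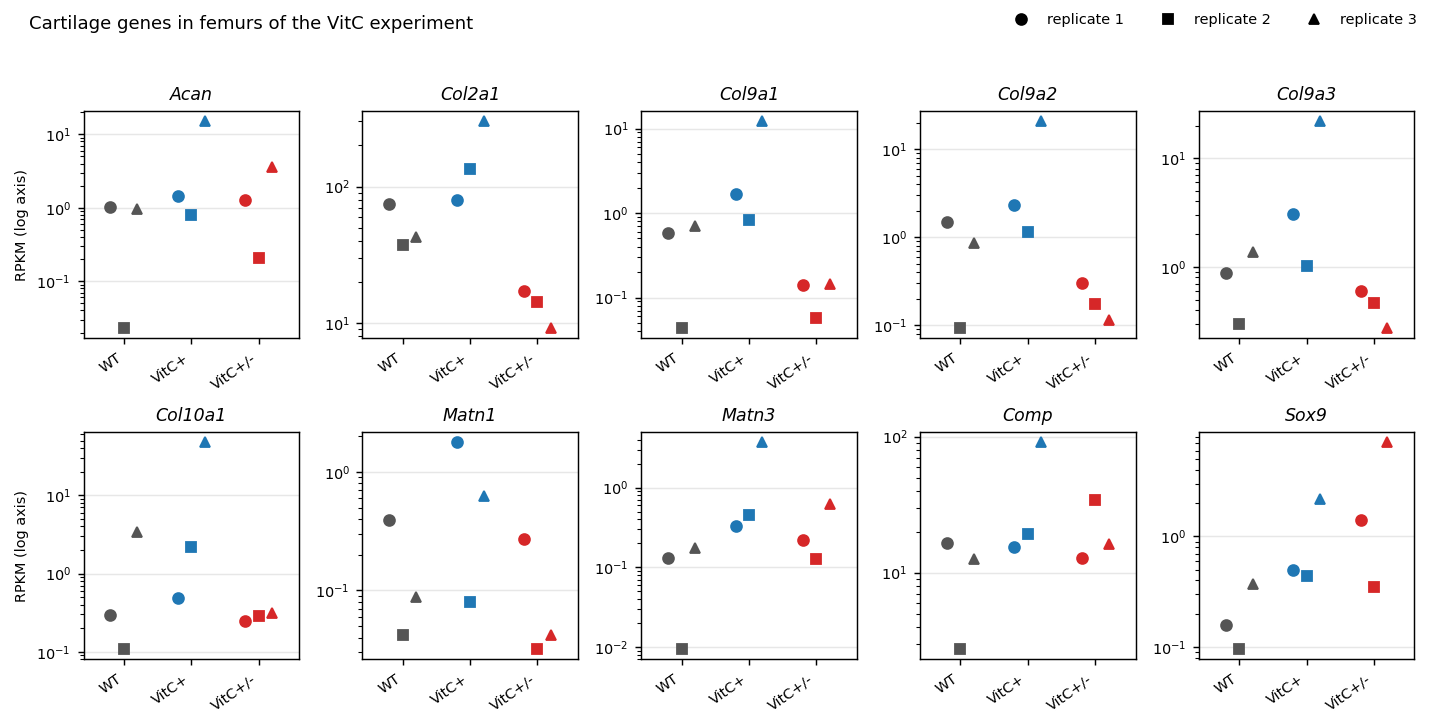
RPKM of the 10 cartilage genes (log axes) in each femur library of the VitC experiment, with point shape for the replicate. Col2a1 runs from 9.21 to 17.1 RPKM in VitC+/- and from 80.1 to 301 RPKM in VitC+, VitC+ replicate 3 is the highest VitC+ library for every gene but Matn1, and Sox9 is highest in VitC+/- replicate 3 (7.13 RPKM).

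Of the 7 members tested in VitC+/- against VitC+, 2 passed, both lower (Col2a1 and Col9a2), where 7.52% of all 12586 genes tested passed in that direction. The VitC+/- libraries lay wholly below the VitC+ libraries for 5 of the 10 members, 4 of them among the 7 tested, against 19.1% of all genes tested. Col9a2, Col9a3 and Col10a1 passed the filter on low values with no VitC+/- library at 1 RPKM, so the filter favours members that were high in VitC+. Without the filter, the median log2 difference over all 10 members was -1.77, and over the tested members it was -2.49 (7 members), or -1.49 (5 members) without VitC+ replicate 3, beside 0.02 over all genes tested. Against WT, 1 of 7 members (Col2a1) passed as lower, where 15.9% of all genes did.

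No member passed the adjusted test between WT and VitC+ femurs, both of which had VitC. In WT against VitC+, 0 of 7 members and 0.0% of all genes had a limma adjusted p under 0.05, with 4 of 7 members lower at an unadjusted p under 0.05 (12.4% of all genes). The scaled WT values lay wholly below the VitC+ values for 5 of 10 members (Col2a1, Col9a1, Matn3, Comp and Sox9, of which 3 were tested), against 14.5% of all genes. Col2a1 differed by -1.67 (SE 0.41, limma adjusted p = 0.0920), and by -1.99 (limma adjusted p = 0.0401) without the shallow WT replicate 1.

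Summed markers of other cell types were set beside these groups. For the marker counts called in VitC+/- against VitC+, 7.52% of all genes tested fell and 5.93% rose. The 12 osteoblast and osteocyte markers summed to 1045 to 3941 scaled RPKM in WT, 5545 to 10862 in VitC+ and 681 to 4351 in VitC+/-, and 7 of 12 fell in VitC+/- against VitC+. The 8 neutrophil markers summed to 30733 to 41836 in WT, 16318 to 26747 in VitC+ and 4385 to 14563 in VitC+/-, without overlap between groups, and 1 of 8 fell in VitC+/- against VitC+. The 7 erythroid markers found of 8 summed to 165 to 240 in WT, 166 to 253 in VitC+ and 308 to 430 in VitC+/-, the last wholly above the others, and 3 of 7 rose. Adipocyte markers summed to 102 to 184, 177 to 394 and 306 to 2449, and 1 of 7 tested rose. Muscle markers summed to 6.54 to 662, 26.2 to 1123 and 6.40 to 407 in that order, with overlap between all groups and 0 of 8 called by limma or at an unadjusted p under 0.05, and no muscle, tendon, neutrophil or erythroid marker that was found was at 0 throughout a group. The part of these cell types in the cartilage values was not tested.

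Other genes of cartilage biology were read as lists. Of 13 tested genes in a list of 20 further cartilage matrix genes, 5 fell in VitC+/- against VitC+ and none rose. Of all genes tested, 7.52% fell and 5.93% rose. The median log2 difference of the 13 was -3.28. Col11a2, a chain of the type XI collagen inside cartilage fibrils, was listed at 185, 131 and 306 RPKM in VitC+ and 8.51, 7.13 and 12.2 in VitC+/-. Its log2 difference was -4.47 (SE 0.41, limma adjusted p = 0.000680). Col11a1, its partner chain, was listed at 76.2, 90.7 and 173 in VitC+ and 12.4, 2.97 and 37.8 in VitC+/- (-3.28, SE 0.74, limma adjusted p = 0.0227). Both genes are also expressed by osteoblasts. Among chondrocyte transcription factors 1 of 6 fell, Mef2c (-1.33, SE 0.30, limma adjusted p = 0.0235), which also acts in muscle and osteocytes, while Runx2, the regulator of hypertrophy and bone formation, differed by -0.67 (limma adjusted p = 0.0575).

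No growth plate signalling gene of 5 tested passed by limma, 1 having an unadjusted p under 0.05. These included Pth1r, the parathyroid hormone receptor (log2 difference -1.30, limma adjusted p = 0.155), and Ptch1, the hedgehog receptor (0.61, limma adjusted p = 0.388). Of 9 genes of the hypertrophic and resorption zone, 4 rose and none fell, where 5.93% of all genes tested rose. Ibsp was counted both in this list and among the osteoblast and osteocyte markers, and Fmod both in the further cartilage matrix list and among the tendon markers. Which cells of the femur gave these values was not tested. Mmp9, a gelatinase of osteoclasts and neutrophils, was listed at 182, 327 and 439 RPKM in VitC+ and 862, 626 and 1087 in VitC+/-. Its log2 difference was 1.37 (SE 0.25, limma adjusted p = 0.0111). Spp1, encoding osteopontin, rose by 1.28 on the log2 scale (SE 0.28, limma adjusted p = 0.0192). In the synthesis of chondroitin sulfate, the side chain of aggrecan, 1 of 9 genes fell, where 7.52% of all genes tested did. It was the sulfotransferase Chst3 (-1.24, SE 0.31, limma adjusted p = 0.0334). The sulfate donor enzyme Papss2 differed by -0.77 (limma adjusted p = 0.0780).

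**Figure D2:**
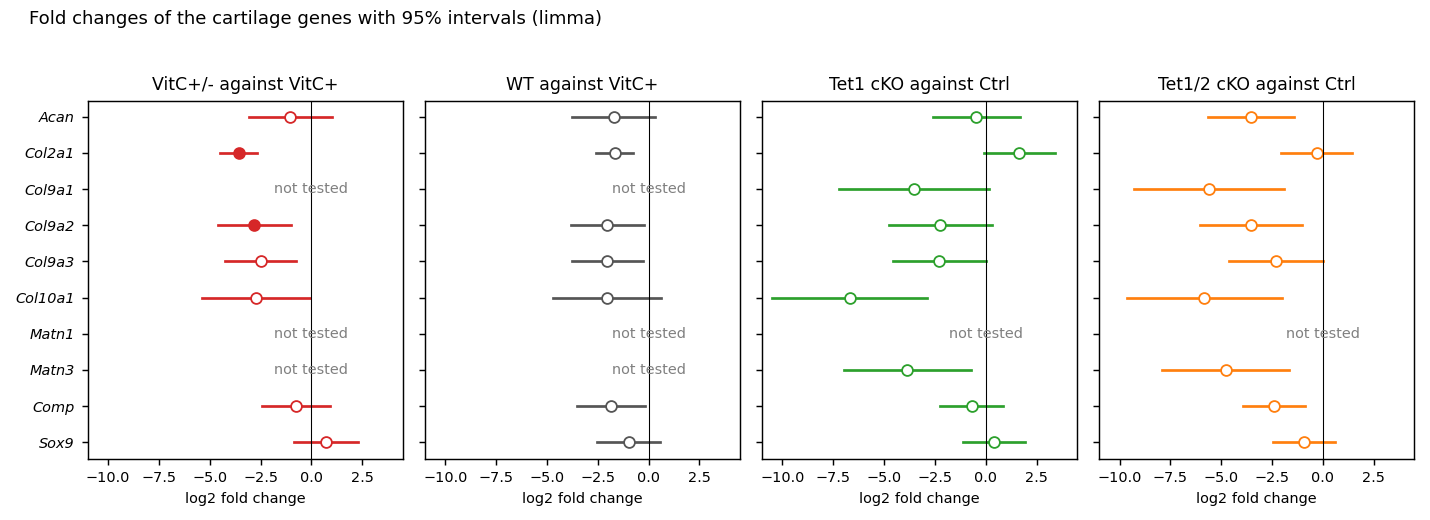
Log2 fold changes of the cartilage genes in 4 comparisons with 95% intervals from limma, filled where the adjusted p was under 0.05. Only Col2a1 (-3.57) and Col9a2 (-2.81) in VitC+/- against VitC+ are filled among these 4 comparisons, and the intervals of Acan, Col9a1, Col9a2, Col9a3, Col10a1, Matn3 and Comp lie below 0 in Tet1/2 cKO against Ctrl.

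In the Tet experiment, values are counts normalized by the authors and are comparable between libraries, not between genes. No member passed the adjusted test in any Tet comparison, and the spread within groups was wide. Col10a1 had the largest fitted log2 differences of the members in all 3 Tet comparisons. Its normalized counts were 1377, 1039 and 740 in Ctrl, 5.46, 7.86 and 16.1 in Tet1 cKO, 2.47, 13.7 and 1803 in Tet2 cKO and 40.4, 15.2 and 7.68 in Tet1/2 cKO. All Tet1 cKO and Tet1/2 cKO femurs and 2 of 3 Tet2 cKO femurs lay far below all Ctrl femurs, and Tet2 cKO replicate 3 lay above them. The log2 difference from Ctrl was -6.68 (SE 1.74, limma adjusted p = 1.00, unadjusted p = 0.00265) in Tet1 cKO, -4.50 (SE 1.74, limma adjusted p = 1.00) in Tet2 cKO and -5.82 (SE 1.74, limma adjusted p = 0.723) in Tet1/2 cKO. Without Tet2 cKO replicate 3, whose spread enters the shared estimate, Col10a1 passed in Tet1 cKO (limma adjusted p = 0.0191) and in Tet2 cKO (-7.16, limma adjusted p = 0.0404).

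Col2a1 did not share this pattern. Its normalized counts were 3343, 17867 and 5885 in Ctrl, 19982, 15433 and 34995 in Tet1 cKO, 13228, 1637 and 12277 in Tet2 cKO and 3989, 8922 and 5278 in Tet1/2 cKO. Each cKO group overlapped Ctrl, and the 3 Tet1 cKO libraries lay above all Tet2 cKO and Tet1/2 cKO libraries. The log2 difference was 1.65 (SE 0.79) in Tet1 cKO, -0.13 in Tet2 cKO and -0.30 (95% interval -2.05 to 1.44) in Tet1/2 cKO, with limma adjusted p of 1.00, 1.00 and 0.911, and without Ctrl replicate 2 the last value was 0.37.

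Acan was at 863, 2392 and 708 normalized counts in Ctrl, 2486, 220 and 1025 in Tet1 cKO, 597, 265 and 2901 in Tet2 cKO and 53.4, 111 and 152 in Tet1/2 cKO. Only the Tet1/2 cKO femurs lay wholly below Ctrl (log2 difference -3.54, SE 0.97, limma adjusted p = 0.723). DESeq2 on reads recovered from the table gave -3.65 with an adjusted p of 0.0406.

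Col9a1 was at 171, 2612 and 141 normalized counts in Ctrl, 38.2, 17.7 and 58.2 in Tet1 cKO, 147, 13.7 and 1087 in Tet2 cKO and 0, 24.3 and 20.1 in Tet1/2 cKO. Col9a2 was at 70.8, 668 and 99.0 in Ctrl, 100.97, 29.5 and 14.1 in Tet1 cKO, 61.8, 27.4 and 520 in Tet2 cKO and 15.3, 7.61 and 21.1 in Tet1/2 cKO. Col9a3 was at 128, 1089 and 135 in Ctrl, 27.3, 79.6 and 72.3 in Tet1 cKO, 29.7, 82.3 and 571 in Tet2 cKO and 67.2, 38.8 and 55.7 in Tet1/2 cKO. All 3 genes were lower in every Tet1/2 cKO femur than in every Ctrl femur, and Ctrl replicate 2 and Tet2 cKO replicate 3 were the high libraries of their groups for each. The log2 differences of Tet1/2 cKO from Ctrl were -5.62 (SE 1.68), -3.53 (SE 1.15) and -2.32, each with a limma adjusted p of 0.723.

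Matn3 was at 48.6, 482 and 35.6 normalized counts in Ctrl, 25.9, 9.83 and 0 in Tet1 cKO, 12.4, 21.6 and 106 in Tet2 cKO and 0, 3.80 and 7.68 in Tet1/2 cKO (log2 difference of Tet1/2 cKO -4.79, SE 1.43, limma adjusted p = 0.723). Comp was at 881, 2507 and 1534 in Ctrl, 1772, 859 and 526 in Tet1 cKO, 3252, 915 and 2142 in Tet2 cKO and 99.97, 450 and 516 in Tet1/2 cKO (-2.39, SE 0.70, limma adjusted p = 0.723). Both were lower in every Tet1/2 cKO femur than in every Ctrl femur. Matn1 did not pass the filter, with at most 24.4 normalized counts in any library.

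Sox9 was at 63.4, 202 and 159 normalized counts in Ctrl, 257, 59.0 and 313 in Tet1 cKO, 64.3, 64.7 and 200 in Tet2 cKO and 83.9, 63.1 and 53.7 in Tet1/2 cKO. The groups overlapped, and the log2 differences were 0.40, -0.43 and -0.94 (SE 0.69 each), with limma adjusted p of 1.00, 1.00 and 0.723.

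**Figure D3:**
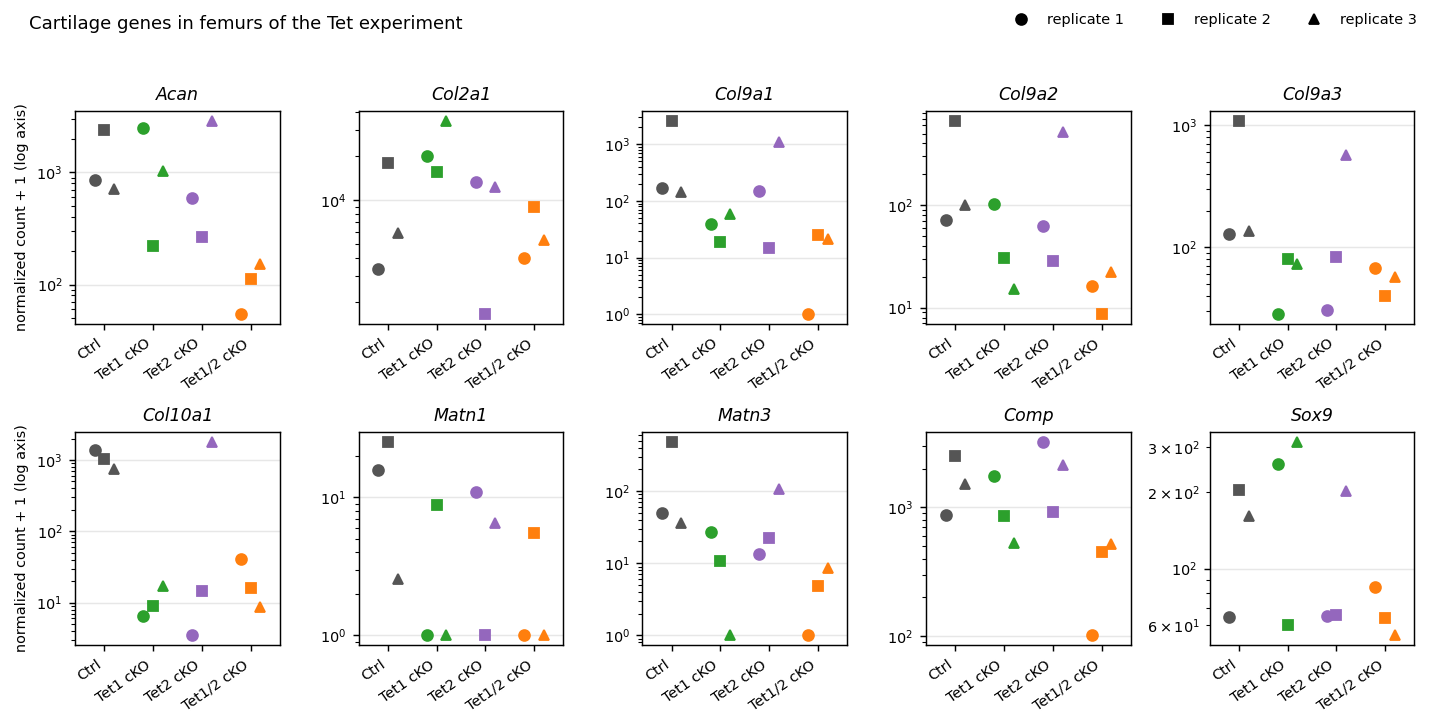
Normalized counts plus 1 of the 10 cartilage genes (log axes) in each femur library of the Tet experiment, with point shape for the replicate. Col10a1 lies at 740 to 1377 in Ctrl and at 5.46 to 40.4 in every Tet1 cKO and Tet1/2 cKO femur, while Col2a1 in each cKO group overlaps Ctrl.

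In Tet1/2 cKO against Ctrl, 0 of 9 tested members and 0.0% of all 16780 genes had a limma adjusted p under 0.05. At an unadjusted p under 0.05, 7 of 9 members were lower (3.28% of all genes), and the same 7 did not overlap with Ctrl (10.0% of all genes). The median log2 difference was -3.53 over the 9 members and -0.01 over all genes. Without Ctrl replicate 2, 5 of 9 members were lower at an unadjusted p under 0.05 and the members' median was -2.54. edgeR on recovered reads called 0 members and DESeq2 called 1.

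In Tet1 cKO against Ctrl, 0 of 9 members passed (0.0119% of all genes), 2 were lower at an unadjusted p under 0.05 (Col10a1 and Matn3, 1.19% of all genes) and 4 lay wholly below Ctrl (Col9a1, Col9a3, Col10a1 and Matn3, 3.54% of all genes). In Tet2 cKO against Ctrl, 0 of 9 passed (0.0119% of all genes), and 1, Col10a1, was lower at an unadjusted p under 0.05 (1.54% of all genes). DESeq2 called 1 member (Col10a1) in Tet1 cKO.

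Limma called no gene of the marker lists of other cell types in Tet1/2 cKO against Ctrl, and only the osteoblast and osteocyte and the adipocyte lists held genes at an unadjusted p under 0.05. The muscle markers summed to 117018 to 510466 normalized counts in Ctrl, 7706 to 1153590 in Tet1 cKO, 3155 to 1560580 in Tet2 cKO and 3144 to 446186 in Tet1/2 cKO, and the tendon markers to 3410 to 11233, 5267 to 23141, 2780 to 37991 and 586 to 6297, each cKO group overlapping Ctrl. The sums of 2 lists lay wholly below Ctrl in Tet1/2 cKO. Osteoblast and osteocyte markers summed to 1004280 to 1295410 in Ctrl, 1199010 to 3899240 in Tet1 cKO, 281703 to 2228360 in Tet2 cKO and 311783 to 694516 in Tet1/2 cKO, where 2 of 12 had an unadjusted p under 0.05 (5.05% of all genes). Adipocyte markers summed to 9971 to 13043 in Ctrl, 7162 to 10756 in Tet1 cKO, 8502 to 33802 in Tet2 cKO and 3506 to 8466 in Tet1/2 cKO, where 2 of 8 had an unadjusted p under 0.05. Neutrophil markers summed to 517070 to 819844 in Ctrl, 348993 to 573096 in Tet1 cKO, 269261 to 1045770 in Tet2 cKO and 745249 to 1626910 in Tet1/2 cKO. No marker of these lists was at 0 in all libraries of a group, and the part of these cells in the cartilage values was not tested.

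In the wider cartilage lists, limma called no gene in Tet1/2 cKO against Ctrl. At an unadjusted p under 0.05, which 5.05% of all genes had in either direction, were 8 of 19 further cartilage matrix genes, 0 of 8 chondrocyte transcription factors, 4 of 10 growth plate signalling genes, 4 of 9 hypertrophic and resorption zone genes and 1 of 9 chondroitin sulfate genes. Ucma, a secreted protein of resting cartilage, was listed at 12.7, 24.4 and 27.8 normalized counts in Ctrl and at 0 in all 3 Tet1/2 cKO libraries. Every Tet1 cKO library also had Ucma at 0. Clec3a, a cartilage lectin, was listed at 211, 1109 and 370 in Ctrl against 0, 82.2 and 3.84 in Tet1/2 cKO. Pth1r was listed at 2416, 4277 and 3202 in Ctrl and 753, 1657 and 1247 in Tet1/2 cKO (log2 difference -1.47, SE 0.44), and the joint growth factor Gdf5 at 21.1, 27.1 and 15.5 against 0, 13.7 and 1.92. The bone sialoprotein gene Ibsp differed by -1.35, the hypertrophic channel gene Panx3 by -1.96 and the chondroitin polymerizing factor Chpf by -1.39, each with a limma adjusted p of 0.723. Chst3 differed by -0.43 (limma adjusted p = 0.745), and the Sox9 partners Sox5 and Sox6 by -1.22 and 0.41 (limma adjusted p = 0.723 and 0.736).

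The proportion of Col2a1 to the other cartilage genes was not constant. Dividing normalized counts within a library, Col2a1 was 19.5, 6.84 and 41.8 times Col9a1 in Ctrl, 523, 873 and 601 times in Tet1 cKO and 89.9, 119 and 11.3 times in Tet2 cKO. In Tet1/2 cKO it was 366 and 262 times Col9a1 in replicates 2 and 3, and Col9a1 was at 0 in replicate 1. These ratios carry the lengths of the 2 genes, so that they compare libraries only. By RPKM, Col2a1 was 131, 852 and 60.4 times Col9a1 in WT, 47.7, 164 and 24.7 times in VitC+ and 122, 246 and 63.1 times in VitC+/-, with all groups overlapping. The ratio was chosen after its values were seen and was not tested.

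**Figure D4:**
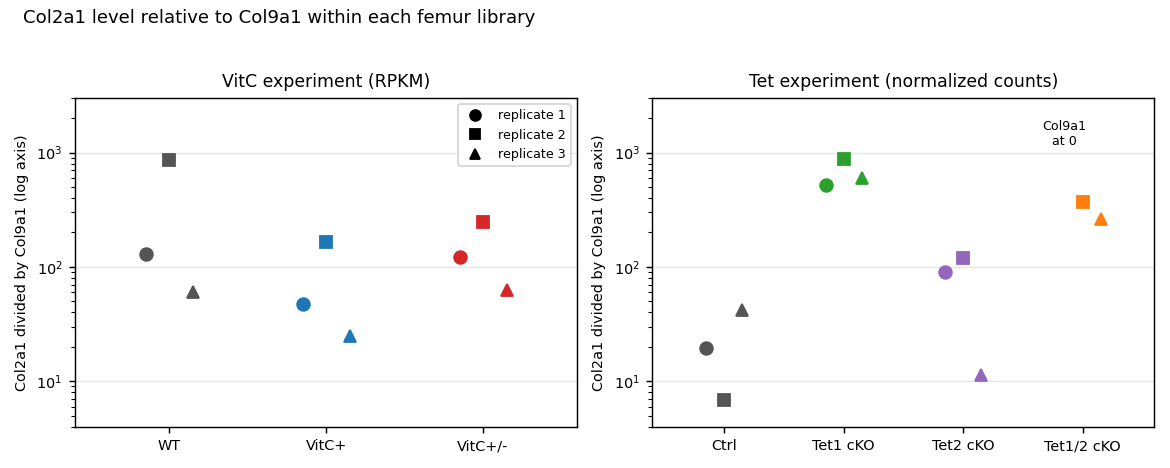
Col2a1 divided by Col9a1 in each femur library (log axes), from RPKM in the VitC experiment and from normalized counts in the Tet experiment. The ratios are 6.84 to 41.8 in Ctrl and 523 to 873 in Tet1 cKO, Tet1/2 cKO replicate 1 has no ratio because Col9a1 was at 0, and the 3 groups of the VitC experiment overlap.

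Among 11190 genes tested in both experiments, those with log2 levels most like Col2a1 over both the 9 VitC and 12 Tet libraries, by the lower of the 2 Pearson correlations, included Lpar3 (0.90), Gm266 (0.90), Rhpn2 (0.89) and Tmtc2 (0.89). None of these 4 is a member. By the same measure Acan ranked 598th, Comp 893rd, Col9a2 1328th, Col9a3 2118th, Col10a1 3565th and Sox9 4839th. Col9a1 and Col9a2 correlated at 0.99 over the VitC and 0.83 over the Tet libraries, while Col2a1 and Col9a1 correlated at 0.84 and 0.39. The libraries share their groups, so these are descriptions.

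Femur 5hmC peaks near the 10 genes were similar in number in VitC+/- and VitC+. The lists held 116 and 123 peaks there, so that 48.5% (exact binomial 95% interval 42.0 to 55.1, counting error only) came from the VitC+/- list, against 51.8% genome-wide. The length covered by peaks was at least 1.5-fold lower in VitC+/- for 1 of 10 members (7.47% of all genes with a peak) and at least 1.5-fold higher for 0 (11.1%). The 1 member was Col2a1, whose VitC+/- list had 7 peaks covering 3540 bp and whose VitC+ list had 14 covering 5845 bp (log2 ratio -0.59). Its gene body held 0 peaks in VitC+/- and 2 in VitC+, among them the window printed above, whose fold enrichment over input was 7.63 with a -log10 q of 26.1. Peak strength near Col2a1 went the other way. The mean fold enrichment was 7.12 in VitC+/- (highest 13.0) and 5.56 in VitC+ (highest 8.94). All 7 VitC+/- peaks there overlapped a VitC+ peak. Of the peaks near the members, 79.3% of those in VitC+/- overlapped a VitC+ peak and 73.2% of those in VitC+ overlapped a VitC+/- peak. Overlap was computed only for peaks near members, here and for the other pairs of lists. It therefore has no genome-wide share beside it. Each list pools 3 libraries, so no test between groups was possible.

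The strongest peaks near these genes in VitC+ femurs were present in both lists and lay outside the genes. A 2250-bp peak before Matn3, around chr12:8926815-8927014, reached a fold enrichment of 17.1 and a peak beyond the end of Matn1, around chr4:130963044-130963243, reached 16.8. The windows are shown, CpGs in capitals, because they differ in CpG content.
Matn3: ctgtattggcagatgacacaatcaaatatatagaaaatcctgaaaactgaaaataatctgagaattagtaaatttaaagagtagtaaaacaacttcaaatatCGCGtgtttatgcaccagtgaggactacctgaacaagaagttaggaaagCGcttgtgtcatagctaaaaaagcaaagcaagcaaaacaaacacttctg
Matn1: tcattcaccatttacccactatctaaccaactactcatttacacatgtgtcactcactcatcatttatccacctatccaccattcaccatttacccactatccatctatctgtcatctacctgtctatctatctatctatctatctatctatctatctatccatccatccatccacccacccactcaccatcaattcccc
The Matn3 window held 3 CpGs. The Matn1 window held none and contained 12 copies of tcta, 9 of them in tandem. Over all VitC+ peaks near the members, the 200 bases around the summit held a median of 2 CpGs, and 22 of 123 held none, and in the VitC+/- list the median was 1, with 30 of 116 holding none. In the Ctrl and Tet1/2 cKO lists the medians were 4 and 4, with 13 of 155 and 8 of 72 windows holding none.

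Femur 5hmC peaks were fewer near the members in Tet1/2 cKO than in Ctrl, as they were across the genome. The lists held 72 and 155 peaks, so that 31.7% (exact binomial 95% interval 25.7 to 38.2) came from Tet1/2 cKO, against 36.1% genome-wide. The covered length was at least 1.5-fold lower for 8 of 10 members, against 85.4% of all genes with a peak, and at least 1.5-fold higher for 0, against 0.116%. The log2 ratio of covered length was furthest from 0 for Acan, from 30 peaks over 15717 bp in Ctrl to 3 peaks over 1156 bp (log2 ratio -2.95), followed by Col9a1, from 5627 to 718 bp (-1.95). Col9a3, with 2 peaks in each list, and Matn3 (-0.52) were the 2 members under that size. The Sox9 region went from 18 peaks over 12868 bp to 8 over 4722 bp (-1.28) and that of Col10a1 from 8 over 6539 bp to 3 over 2658 bp (-1.04). All 72 Tet1/2 cKO peaks overlapped a Ctrl peak (100%), and 41.9% of Ctrl peaks overlapped a Tet1/2 cKO peak.

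In MC3T3-E1 cells most 5hmC peaks near these genes did not overlap between the lists with and without VitC. Overlap of these lists across the genome was not computed. The VitC- list held 90 and the VitC+ list 95, a share of 48.6% for VitC- (exact binomial 95% interval 41.2 to 56.1) against 52.9% genome-wide, and 36.7% of VitC- and 29.5% of VitC+ peaks overlapped the other list. Covered length was at least 1.5-fold lower without VitC for 3 of 10 members (47.5% of all genes with a peak) and higher for 2 (29.4%). The lower ones were Col2a1, at 6969 against 14742 bp, Matn3, at 8834 against 25196 bp, and Sox9, at 5940 against 15396 bp. The higher ones were Acan, at 1565 against 298 bp, and Col9a1, with 10 peaks over 4786 bp without VitC and none with it.

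H3K27me3, the polycomb mark of silenced genes, covered 7 of the 10 regions in MC3T3-E1 cells, while Matn3, Comp and Sox9 had no peak in either list. The VitC- list held 57 and the VitC+ list 80 peaks near members, a share of 41.6% (exact binomial 95% interval 33.3 to 50.3) against 49.4% genome-wide. By covered length, 4 of the 7 members with a peak were at least 1.5-fold higher without VitC, against 52.8% of all genes with a peak. These were Acan, Col9a1, Col9a2 and Matn1, and 0 members were lower, against 1.95%. Acan was covered over 81146 bp by 9 peaks without VitC and over 49407 bp by 19 peaks with it, and Matn1 over 64213 bp by 4 peaks and over 38878 bp by 17. Of VitC- peaks 50.9% and of VitC+ peaks 81.3% overlapped the other list. At Acan and Matn1 fewer peaks thus covered more sequence without VitC, and the -log10 q of H3K27me3 peaks near members was at most 5.08.

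H3K9me3 was sparse, with 20 peaks near the members in VitC- and 13 in VitC+ cells, a share of 60.6% (exact binomial 95% interval 42.1 to 77.1) against 57.1% genome-wide, of which 30% and 61.5% overlapped the other list. Col9a2, Matn3 and Comp had none. Covered length was at least 1.5-fold higher without VitC for 2 of the 7 members with a peak, against 47.0% of all genes with a peak. These were Sox9, at 8368 against 1513 bp, and Matn1, at 2632 against 937 bp. Covered length was lower for 2 of these 7, against 7.16%, namely Col2a1, at 1396 against 2917 bp, and Col9a1. The Col9a1 difference rested on 1 VitC+ peak of 1275 bp (-log10 q of 2.07) and no VitC- peak.

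**Figure D5:**
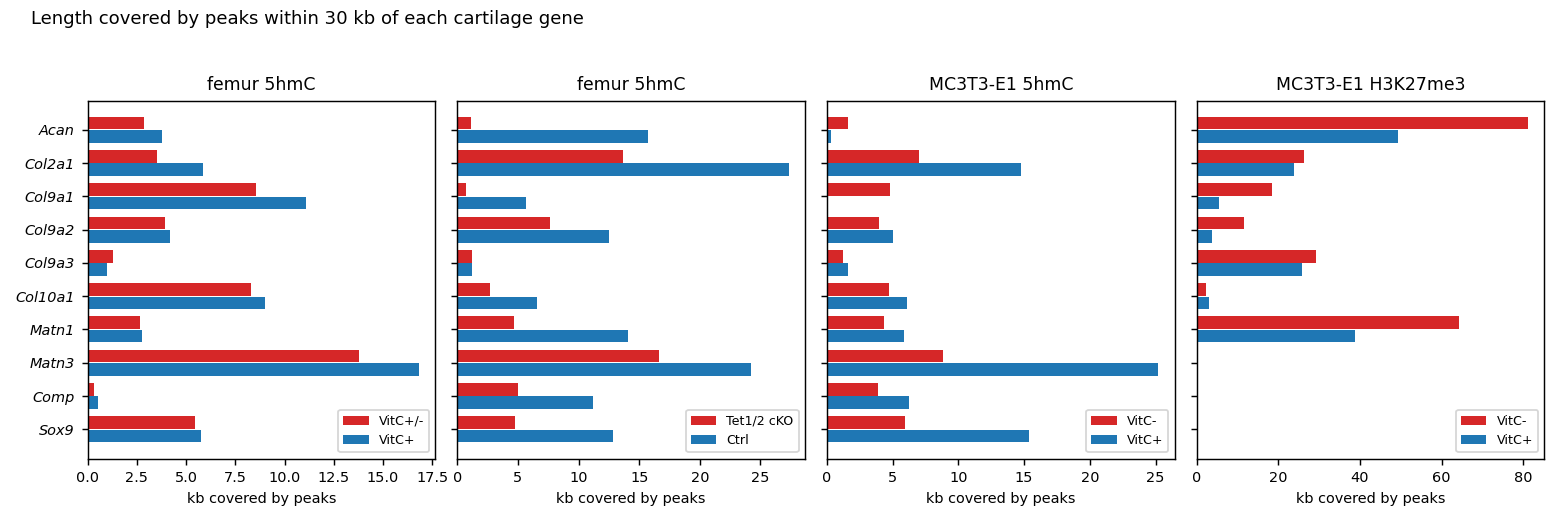
Length in kb covered by peaks within 30 kb of each cartilage gene in pairs of peak lists (red, VitC-deficient or Tet1/2 cKO, blue, VitC+ or Ctrl). Covered 5hmC in femurs is lower in Tet1/2 cKO for every gene, least for Col9a3 (1185 against 1219 bp), and H3K27me3 covers Acan and Matn1 most widely (81146 and 64213 bp without VitC).

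Promoters were read as the 250 bases before a RefSeq gene start (GRCm38.p6, gene strand), which were given for 6 of the 10 members. Those of Col10a1 and Col9a2 are printed below. Sox-family factors bind short motifs, searched here as ACAAAG and AACAAT on both strands, which do not overlap. The Col10a1 promoter (chr10:34389731-34389980) had a 5hmC peak in VitC+ MC3T3-E1 cells. The Col9a2 promoter (chr4:121039316-121039565) had a 5hmC peak in Ctrl and Tet1/2 cKO femurs and in VitC- MC3T3-E1 cells, and an H3K27me3 peak in both MC3T3-E1 lists. The Matn1 promoter, not printed, had a 5hmC peak in Ctrl femurs only and an H3K27me3 peak in both MC3T3-E1 lists. A second Col9a1 promoter had an H3K27me3 peak in VitC- cells. The promoters of Acan and Matn3, read as these 250 bases, had no peak in any list. Peaks did lie within 1000 bp of both gene starts. For Acan these were 2 H3K27me3 peaks in VitC- cells, 1 in VitC+ cells and 1 5hmC peak in Ctrl femurs. For Matn3 each of the femur 5hmC lists held 1 such peak, as did the 5hmC list of MC3T3-E1 cells with VitC. Capitals mark a motif.
Col10a1: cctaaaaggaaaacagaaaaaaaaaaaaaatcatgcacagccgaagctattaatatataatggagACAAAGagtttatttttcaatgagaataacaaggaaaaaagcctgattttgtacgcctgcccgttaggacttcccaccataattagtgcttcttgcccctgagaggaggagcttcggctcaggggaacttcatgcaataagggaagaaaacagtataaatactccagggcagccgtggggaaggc
Col9a2: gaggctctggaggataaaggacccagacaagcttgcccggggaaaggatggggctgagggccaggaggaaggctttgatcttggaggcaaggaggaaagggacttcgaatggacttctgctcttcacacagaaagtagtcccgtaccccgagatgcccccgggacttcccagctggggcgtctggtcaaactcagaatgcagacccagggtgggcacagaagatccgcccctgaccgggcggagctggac
Col10a1 held 1 copy of ACAAAG and Col9a2 held neither motif, as did the promoters of Col9a1, Matn1, Acan and Matn3. Of 32851 promoters of the same length, 16.5% held ACAAAG, 9.42% held AACAAT and 24.0% held either. The Col10a1 promoter held 5 CpGs and that of Col9a2 held 9, beside a median of 6 over all promoters.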

How the data were processed

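Femur RNA, 5hmC and histone marks were analysed from the values the authors deposited. Femur RNA-seq reads (TruSeq, unstranded) were aligned to mm10 by STAR (2.6.0b-1) and counted by featureCounts (1.6.3), per the submitters' processing notes. The authors deposited RPKM values, normalized to transcript length and library size, in 1 file per library of the VitC experiment, and while the methods name cufflinks for FPKM, which tool made these RPKM values is not given in the sources used here. The Tet table holds a signal that is the read count divided by a DESeq2 size factor by the authors. Peaks were called by the authors with MACS2 (2.1.1.20160309.6 per the processing notes, while the methods name an earlier version) on pooled libraries after BWA (0.7.15.1), and the deposited lists give fold enrichment over input and -log10 q-values. The femur lists of the VitC experiment cover autosomes only, and the histone lists reach down to a -log10 q of 1.01. The labels place the histone ChIP at day 28 while the peak names and methods give an earlier day, so no day is stated for it.

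RPKM was scaled by median-of-ratios factors, and genes with at least 1 RPKM in 3 libraries (12586) were tested with limma (3.58.1, trend) on log2(RPKM + 0.5) over 9 libraries. For the Tet table, genes with at least 10 in 3 libraries (16780) were tested on log2(normalized count + 1) over 12 libraries. P-values were adjusted by Benjamini-Hochberg over all genes tested, at 0.05, and the fold changes of low genes are understated by the pseudocounts. Non-overlap of groups was read on the scaled values. Read depth was recovered from the steps between low values: 93.3 to 94.7% of low RPKM values (within 0.1) and 100% of Tet values (within 0.05) were whole reads, and edgeR (4.0.16) and DESeq2 (1.42.0) were run on the recovered Tet reads. A peak belonged to a gene if it touched the gene or 30 kb on either side, and ratios of covered length add 1000 bp to both lists. Scripts were tested on simulated data. RefSeq lists of promoters were used for 6 members.

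The members, gene lists and tests were chosen with earlier results of these data known. Named genes were all members, the 2 genes with the smallest adjusted p of each cartilage list in VitC+/- against VitC+ and in Tet1/2 cKO against Ctrl, and the 5 genes most like Col2a1, of which 1 is not reported here. Alternatives covered scaling, pseudocount, filter, samples in the fit, replicate block, test, each library left out, and peak threshold, window and overlap.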

Additional observations from a re-analysis of the deposited data

How the results depend on the processing

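Of values for single genes under the alternatives, 862 kept their direction and side of the threshold, 10 passed it newly, 12 lost it and 19 reversed. Of counts and shares, 113 stayed within the limits set and 26 moved. For each the cause was not tested. Members called in VitC+/- against VitC+ were 2, and 1 (Col2a1) without scaling, with a pseudocount of 1, without the filter, in a fit of only the 2 groups, and without WT replicates 1 and 3, which were left out after seeing the data. Leaving out 1 library gave 1 to 3, and leaving out VitC+ replicate 2 gave the 3. Against WT the count was 1, and 0 without WT replicates 1 and 3, which left 1 WT library, assumed to vary like the other groups (Col9a2 then at 0.23 and Col9a3 at 0.25), and 1 to 2 with a library left out, the 2 without VitC+/- replicate 2 (Sox9 2.41, limma adjusted p = 0.0188). For WT against VitC+ the range was 0 to 1. In Tet1 cKO 1 member (Col10a1) was called in a fit of only the 2 groups and by DESeq2, and 0 to 1 with a library left out, as in Tet2 cKO. In Tet1/2 cKO DESeq2 called 1.

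The labels do not say whether the replicate numbers pair libraries, and 3 libraries per group cannot settle it. Deviations of same-numbered libraries correlated at -0.19 to 0.46 in the VitC experiment (4 of 9 pairs over 0.1). In the Tet experiment they correlated at -0.57 to 0.53 (6 of 18). With the replicate number as a block, 3 members were called in VitC+/- against VitC+ (Col9a3 limma adjusted p = 0.0333), 2 against WT (Sox9 limma adjusted p = 0.0193), 0 in WT against VitC+ and 0 in each Tet comparison, and 774 genes in place of 0 were called in WT against VitC+.

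Values of single genes that reversed did so mostly with 1 library left out, over which they ranged, in Tet1 cKO, from -1.25 to 0.49 (Acan) and -0.091 to 1.15 (Sox9), in Tet2 cKO from -1.51 to 0.21 (Acan), -0.67 to 0.85 (Col2a1), -3.10 to 0.0065 (Col9a1), -1.997 to 0.20 (Col9a2) and -0.10 to 0.81 (Comp), and in Tet1/2 cKO from -0.84 to 0.37 (Col2a1). Without Ctrl replicate 2 and Tet2 cKO replicate 3, left out together after seeing the data, Acan in Tet1 cKO was at 0.078, Col2a1 in Tet2 cKO at 0.069 and Col2a1 in Tet1/2 cKO at 0.37. DESeq2 gave Col2a1 in Tet2 cKO at 0.00082.

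At a -log10 q of at least 5 the Tet1/2 cKO share of femur 5hmC peaks was 23.5%, the VitC- share of H3K27me3 peaks 100% (1 peak) and that of H3K9me3 peaks 0% (1 peak in VitC+), and within 10 kb the H3K9me3 share was 33.3%. When a peak counted as shared only if at least 50% of it was covered, 14.7% of VitC+ MC3T3-E1 5hmC peaks and 33.3% of VitC- H3K27me3 peaks were shared. Over all genes, VitC+/- against VitC+ had 1692 calls, 876 without scaling and 487 to 2296 with a library left out, VitC+/- against WT had 3934 and 2275 to 4113, WT against VitC+ had 0, 10 in a fit of only the 2 groups and 0 to 604, and DESeq2 called 24, 13 and 10 genes in Tet1, Tet2 and Tet1/2 cKO in place of 2, 2 and 0. Depth limits Matn1, Matn3 and Col9a1, which rested on 1 to 27 reads in some femurs. Low reads also limit Col9a2 (about 15 to 29 in the VitC+/- femurs) and Col10a1 (about 27 to 46 there). Acan rested on about 6 reads in WT replicate 2 and Sox9 on about 5 in WT replicate 1.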
